A study of Populus tremula x Populus alba with 6 samples.

Results

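The 150 gene identifiers with the most sense reads in the shoot apex of hybrid poplar were described across 6 RNA-sequencing libraries. They were chosen by their mean level over all 6 libraries, in counts per 1000000 sense counts assigned to genes (CPM), from the 29923 identifiers that lie outside chromosome 19 and the unplaced scaffolds (Potri.T), out of 32049 listed in all. Had those been kept, 4 identifiers of chromosome 19 and 3 of the scaffolds would have ranked above the last member. Among them, Potri.019G124400, Potri.019G050200 and Potri.T011200 had means of 3020, 2944 and 2758 CPM, above the member of rank 7 (2735 CPM). Ranks, and the 10 or 150 highest of a library, are therefore counted below among the 29923 identifiers only. All 150 members were detected in every library, and all 150 passed the filter on low counts.

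The libraries came from 3 plants carrying an RNAi construct that knocks down DDM1 (RNAi) and 3 wild-type plants (CTRL), all of the Populus tremula x Populus alba hybrid 717-1B4. Water was withheld from every plant, CTRL included, for 3 weeks and given again for 1 week before harvest. All were grown at 21 °C, under a 16 h day and a hygrometry of 32%, and were harvested 115 days after planting. The promoter of the construct, the number of transformed lines and the level of DDM1 were not analysed here, and p-values measure the spread between these 3 and 3 plants only. Sense counts ranged from 14216534 to 17165295 in the RNAi libraries and from 12399644 to 15627060 in the CTRL libraries.

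The shoot apex is the growing tip of a stem, with the meristem and the youngest leaves around it. Messenger RNA in such tissue is spread very unevenly, with a small part of the genes giving a large part of the molecules. In growing plant tissue the most heavily transcribed genes are generally those for protein synthesis, photosynthesis, chromatin, the cytoskeleton and the cell wall. DDM1 is a chromatin remodeller that plants need to keep DNA methylation, chiefly in transposons. The files do not pair the identifiers with names, so no function is given to any member below, the tissue label was not checked against marker genes, and no sequence is shown. CPM is not divided by transcript length, so an order of members is an order of read counts and not of transcript molecules. A lower level in bulk tissue can come from fewer cells of a type or from less RNA per cell, and these cannot be told apart.

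The 150 members, 0.468% of all listed identifiers, held 15.8% of the sense counts of a library on average. Their share was 17.0%, 15.4% and 15.3% in RNAi 1, 2 and 3 and 17.9%, 14.0% and 15.2% in CTRL 1, 2 and 3. The groups overlapped, with 15.9 ± 0.97% in RNAi plants and 15.7 ± 1.99% in CTRL plants (SD, n = 3 each), and the difference of 0.24 percentage points was smaller than the spread within either group. It was 1.33 points without CTRL 1 and -0.61 points without CTRL 2, the libraries with the highest and the lowest share. The next 150 identifiers held 6.34 ± 0.11% in RNAi and 6.21 ± 0.35% in CTRL. Within the members the counts were concentrated further up, as the 10 highest held 3.17 ± 0.47% of a library in RNAi and 3.20 ± 0.54% in CTRL. To reach 50% of the sense counts took 1700, 1838 and 1890 identifiers in RNAi 1, 2 and 3 and 1548, 2133 and 1900 in CTRL 1, 2 and 3, so CTRL 1 was the most and CTRL 2 the least concentrated library.

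**Figure D1:**
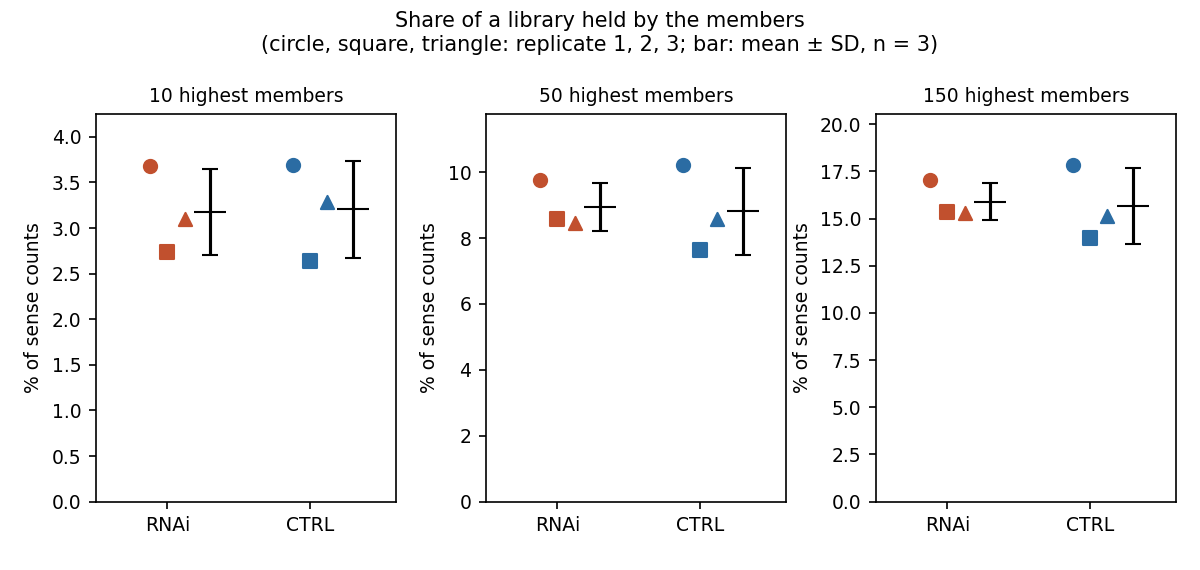
Share of sense counts (%) held by the 10, 50 and 150 highest members in each RNAi and CTRL library, with the mean ± SD of each group (n = 3). The groups overlap in all 3 panels, and replicate 1 is the highest point of both groups in each.

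The highest 3 ranks were held by close neighbours on chromosome 10. Potri.010G150500 had 5006, 3717 and 4326 CPM in RNAi 1, 2 and 3 and 5278, 3970 and 4894 CPM in CTRL 1, 2 and 3. Potri.010G150800 had 4559, 4146 and 4154 CPM in the RNAi libraries and 4211, 3825 and 5001 CPM in the CTRL libraries. Potri.010G150700 had 3979, 3218 and 3426 CPM in the RNAi libraries and 3841, 3429 and 4355 CPM in the CTRL libraries. Together these 3 identifiers held 1.22 ± 0.13% of an RNAi library and 1.29 ± 0.16% of a CTRL library (SD, n = 3 each). None of the 3 ranked below 4 in any library, and their RNAi and CTRL values overlapped. Reads that map to several places were set aside in a line of their own in the files, so the level of an identifier with a near-identical copy is understated, and whether this touches these neighbours was not tested.

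Potri.009G130100 on chromosome 9 ranked 4 on average and between 2 and 6 in single libraries. It had 3861, 2882 and 2943 CPM in the RNAi libraries and 4714, 2406 and 3865 CPM in the CTRL libraries, so the CTRL plants spanned the RNAi plants. With the 3 neighbours on chromosome 10 it made up the 4 members that were among the 10 highest of every library. In all, 19 identifiers reached the 10 highest of at least 1 library. Both counts leave out chromosome 19 and the unplaced scaffolds.

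Ranks 5 to 10 also held even and uneven members. Potri.004G168800 had 2899, 2252 and 2668 CPM in RNAi and 3308, 2598 and 3167 CPM in CTRL. Potri.001G415100 had 3905, 2462 and 3145 CPM in RNAi and 3701, 1622 and 1975 CPM in CTRL, which is rank 5 in CTRL 1 but rank 18 in CTRL 2. Potri.001G191000 had 3685, 2004 and 3220 CPM in RNAi and 2961, 1783 and 2758 CPM in CTRL. In these 3 members the groups overlapped, and the lowest library was RNAi 2 in the one and CTRL 2 in the others. Potri.015G074600 had 3393, 2587 and 2440 CPM in RNAi and 3443, 1936 and 2389 CPM in CTRL. Potri.004G106600 had 2720, 2359 and 2587 CPM in RNAi and 3436, 2071 and 2042 CPM in CTRL. For both of these CTRL 1 was the highest library. Potri.016G015500 was more even than these, with 2782, 1786 and 2107 CPM in RNAi and 2064, 2694 and 2368 CPM in CTRL. Here CTRL 2 stood above CTRL 1.

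Ranks 11 to 15 held both steady and uneven members. Potri.017G059400 had 2455, 2416 and 1287 CPM in RNAi and 2770, 1304 and 2092 CPM in CTRL. Potri.009G085100 was steadier, with 2074, 1904 and 2049 CPM in RNAi and 1959, 1769 and 2189 CPM in CTRL. Potri.010G222700 had 2015, 2177 and 1419 CPM in RNAi and 2596, 1699 and 1920 CPM in CTRL. Of these 3 members, CTRL 1 was highest in Potri.017G059400 and Potri.010G222700 and CTRL 3 in Potri.009G085100. Potri.008G054700 had 1873, 3221 and 1386 CPM in RNAi and 2293, 1321 and 1547 CPM in CTRL, with rank 3 in RNAi 2 and rank 27 in CTRL 2. Potri.017G010900 had 2238, 1309 and 2261 CPM in RNAi and 2560, 2054 and 975 CPM in CTRL, with its low values in RNAi 2 and CTRL 3.

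**Figure D2:**
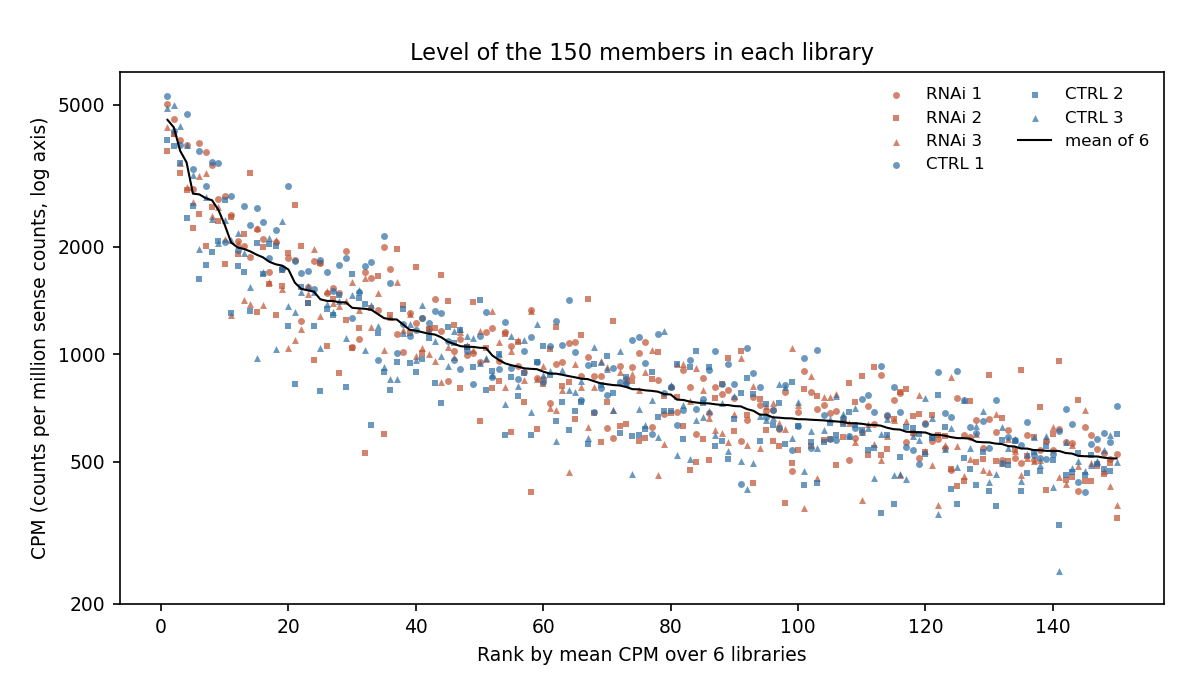
Level of each member in each library (CPM, log axis) against its rank by the mean of the 6 libraries, with that mean as a line. It falls from 4532 CPM at rank 1 to 510 CPM at rank 150, most steeply over the highest ranks, and RNAi and CTRL points are mixed throughout.

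From rank 1 to rank 150 the mean level fell 8.88-fold, and 51 members had a mean above 1000 CPM. The limit of the list was not a break in levels. Potri.016G055000, Potri.005G240200 and Potri.008G074600, the last 3 members, had means of 513, 511 and 510 CPM. Just outside, Potri.006G063000, Potri.005G072300 and Potri.003G101600 had means of 508, 507 and 504 CPM.

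Ranks held broadly but not in detail between plants. Of the 150 members, 93 were among the 150 highest of every library, and a single library had between 121 (RNAi 2) and 139 (RNAi 1) of them among its own 150 highest. Altogether 226 identifiers reached the 150 highest of at least 1 library. Spearman's rho between libraries over the 150 members, given as a description across genes, ran from 0.629 (RNAi 2 and RNAi 3) to 0.914 (RNAi 1 and CTRL 1), with a median of 0.727. The closest pair crossed the groups, as did the next, RNAi 3 and CTRL 2 at 0.854. Pairs across the groups ran from 0.645 (RNAi 2 and CTRL 3) to 0.914. Pairs within a group lay between 0.629 and 0.823 in RNAi and between 0.717 and 0.827 in CTRL, so the ranges overlapped. Potri.016G112400 moved most in rank, at 57 in RNAi 2 and 528 in CTRL 3.

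Variation between plants was larger among the members than among all tested identifiers. For this and the comparisons that follow, CPM was scaled with trimmed-mean (TMM) factors. The coefficient of variation (CV) within groups, the pooled SD of the 3 RNAi and 3 CTRL plants over the mean, had a median of 20.4% over the members, against 15.9% over the next 150 and 16.7% over all 24991 tested identifiers. Counting error alone gives a member a CV of at most 1.61% at these depths. A CV over 30% was found in 42 members (28.0%), against 16.0% of the next 150 and 19.7% of all tested. A CV under 10% was found in 16 members (10.7%), against 17.3% of the next 150 and 21.2% of all tested. The median CV was 18.4% within RNAi and 19.5% within CTRL. In 52 members (34.7%) the highest library was more than 2-fold above the lowest, against 27.5% of all tested. These are descriptions, since the choice by mean level uses the same values.

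**Figure D3:**
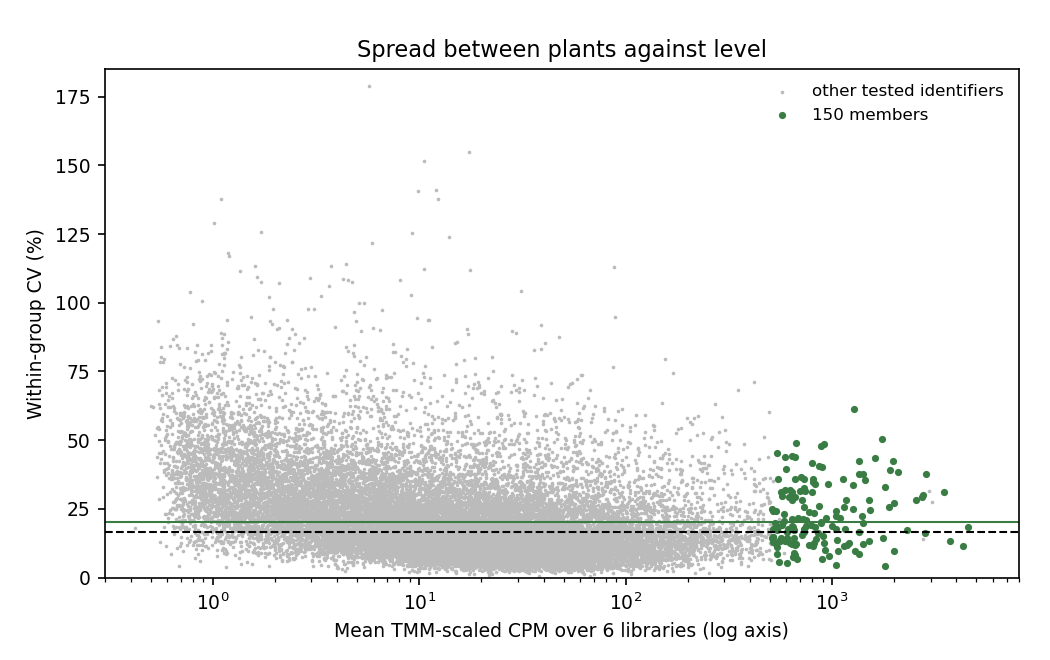
Within-group CV (%) against mean level (TMM-scaled CPM, log axis) for the 150 members (green) and the other tested identifiers (grey). The solid line marks the members' median of 20.4% and the dashed line the median of all tested, 16.7%.

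The steadiest member was Potri.004G015300 on chromosome 4, with a within-group CV of 4.23%. It had 1745, 1608 and 1578 TMM-scaled CPM in RNAi and 2001, 1913 and 2033 in CTRL, so the groups did not overlap although the fitted difference was small (log2 fold change -0.27 ± 0.18, SE, edgeR adjusted p = 0.81). Potri.009G015400 on chromosome 9, with a CV of 4.48%, had 1023, 1072 and 1047 TMM-scaled CPM in RNAi and 1098, 982 and 1079 in CTRL. Its highest library was 1.12-fold above its lowest, and the groups overlapped. Potri.002G261500 had 619, 685 and 601 TMM-scaled CPM in RNAi and 579, 584 and 567 in CTRL, with a CV of 5.27% and no overlap. Potri.002G093100 (CV 5.58%) had 526, 549 and 529 TMM-scaled CPM in RNAi and 617, 537 and 555 in CTRL. Potri.014G146600 (CV 6.67%) had 875, 843 and 916 TMM-scaled CPM in RNAi and 894, 988 and 838 in CTRL. Both of these overlapped between the groups.

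At the other end, Potri.007G045100 on chromosome 7 had a within-group CV of 61.3%. It had 2049, 609 and 1019 TMM-scaled CPM in RNAi and 2294, 837 and 885 in CTRL, so that 1 plant of each group, RNAi 1 and CTRL 1, stood far above the others. Potri.006G101100 (CV 50.4%) had 1908, 1965 and 1032 in RNAi and 3180, 1124 and 1315 TMM-scaled CPM in CTRL. Potri.006G010300 (CV 49.0%) had 923, 817 and 367 in RNAi and 1045, 404 and 452 TMM-scaled CPM in CTRL. In both of these CTRL 1 was highest and RNAi 3 lowest. Potri.009G072900 (CV 48.7%) had 1364, 419 and 1308 in RNAi and 1200, 558 and 660 TMM-scaled CPM in CTRL, with RNAi 2 the lowest. Potri.016G089500 (CV 47.9%) had 1107, 855 and 463 in RNAi and 1523, 577 and 760 TMM-scaled CPM in CTRL, again with CTRL 1 highest and RNAi 3 lowest. All 5 overlapped between the groups.

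Much of this variation ran in the same plants across members. CTRL 1 was the highest library for 69 of the 150 members, while the others were highest for 16, 32 and 18 (RNAi 1, 2 and 3) and 5 and 10 (CTRL 2 and 3). CTRL 1 thus led in 46.0% of the members, against 17.2% of all tested identifiers. CTRL 2 was the lowest library for 63 members (42.0%), against 13.0% of all tested, and RNAi 2 was lowest for 37 (24.7%), close to its 23.3% of all tested. RNAi 1 and CTRL 1 were together the 2 highest libraries for 51 members (34.0%), against 26.0% of the next 150 and 8.81% of all tested. The choice of members by mean level uses the same values, so these shares are descriptions. The TMM factors, 0.93 for CTRL 1 and 1.07 for CTRL 2, raise the values of CTRL 1 and lower those of CTRL 2. Without TMM factors CTRL 1 was highest for 53 members, CTRL 2 lowest for 44 and RNAi 2 lowest for 50. The matching shares over all tested identifiers were not computed without TMM factors. Relative to its 6-library mean, the median member stood at 0.13, -0.07 and -0.06 on the log2 scale in RNAi 1, 2 and 3 and at 0.26, -0.22 and -0.09 in CTRL 1, 2 and 3, while the median of all tested identifiers lay within 0.02 of 0 in each. CTRL 1 had the fewest sense counts (12399644), and CTRL 2 the next fewest (13664046). Reads not assigned to a gene were most frequent in CTRL 2 (13.1%, against 11.7% to 12.2% in the others). The labels name no batch or date that parts these plants, and a part of depth or RNA quality in the pattern was not tested.

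**Figure D4:**
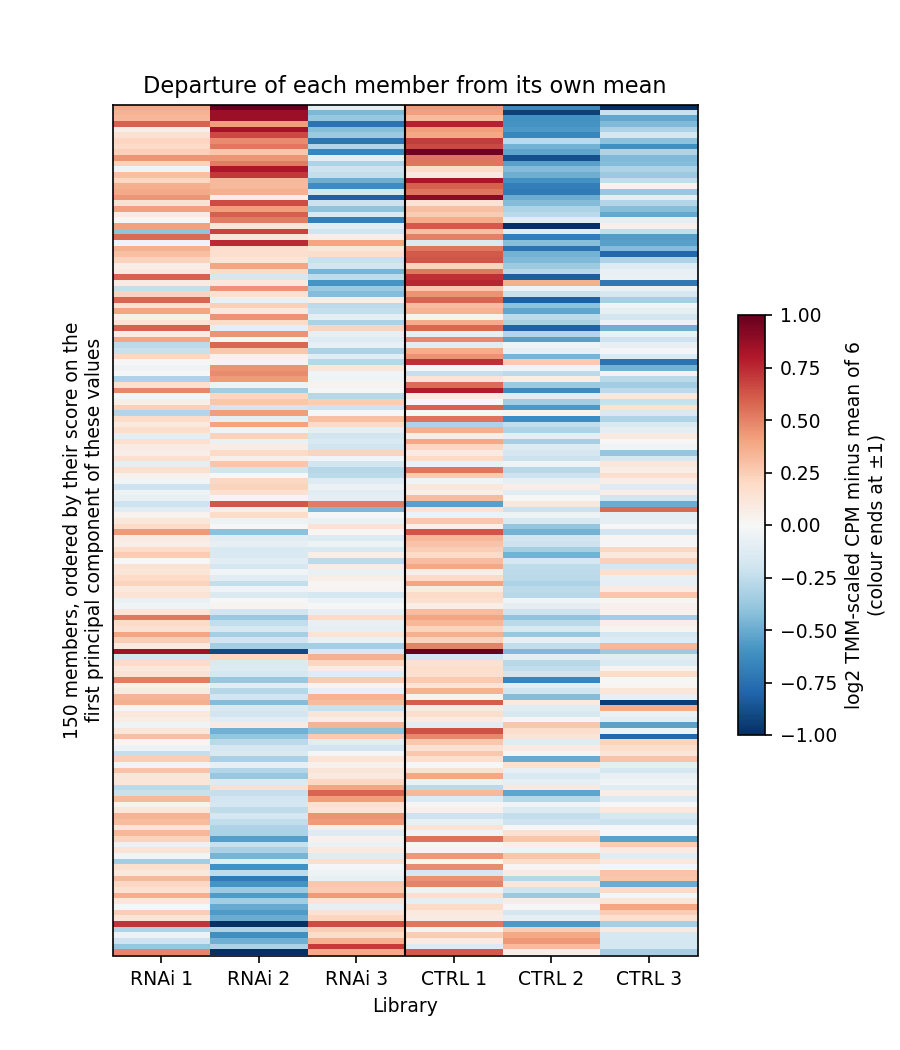
Log2 TMM-scaled CPM of each member minus its mean over the 6 libraries, with the 3 RNAi libraries left of the 3 CTRL libraries and members ordered by their score on the first principal component. CTRL 1 is red (above the mean) for most members and CTRL 2 blue (below it) for most, while RNAi 2 is above the mean at the upper end and below it at the lower end.

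No member was called changed between RNAi and CTRL. In edgeR's quasi-likelihood test over 24991 identifiers, none of the 150 members passed the threshold of 0.05 on the adjusted p, where 1 identifier (0.004%) did. None passed in limma-voom (0.008% of the same identifiers). None passed in DESeq2 either, which was fitted without the filter on low counts (0.124% of 29796 identifiers). The lowest adjusted p of a member was 0.80 in edgeR, 0.31 in DESeq2 and 0.82 in limma-voom. At an unadjusted p under 0.05 edgeR gave 2 members higher and 0 lower in RNAi, or 1.33% of the members, against 5.64% of all tested (3.08% higher and 2.56% lower). DESeq2 gave 8 higher and 4 lower at that level, where 4.82% of its 29796 identifiers passed (2.76% higher and 2.06% lower). With limma-voom 2 were higher and 0 lower, where 5.39% of all passed (2.74% higher and 2.64% lower). The share of members passing was thus above that of all identifiers in DESeq2 and below it in edgeR and limma-voom. Fitted log2 fold changes ran from -0.51 to 0.77 with a median of 0.01, against a median of 0.00 over all tested, and 80 members were above 0 and 70 below. The median SE was 0.23 for a member and 0.20 over all tested. The RNAi and CTRL values did not overlap in 8 members (5.33%), 4 higher and 4 lower in RNAi, against 11.8% of all tested (5.75% higher and 6.08% lower). The median of the members was 0.18 without CTRL 1, with 116 of 150 above 0, and -0.08 without CTRL 2, with 58 above 0. It was also below 0 without RNAi 1 (-0.04, with 63 above 0) and without CTRL 3 (-0.01), so its direction was not stable. With library size as the only scaling it was -0.01, but there the median of all tested identifiers shifted too, to -0.04.

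**Figure D5:**
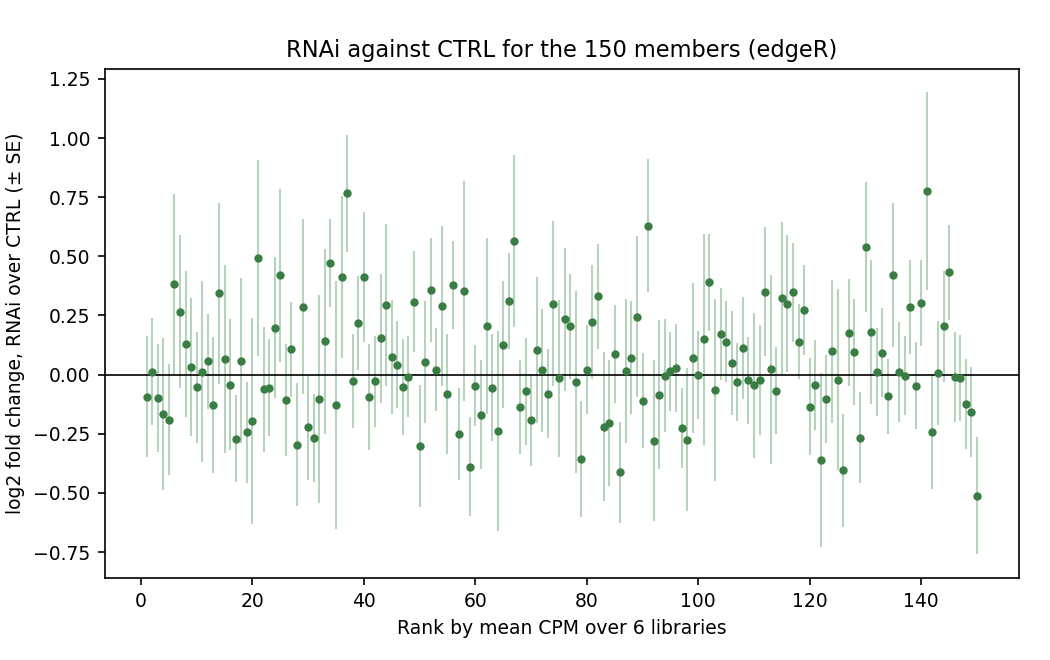
Fitted log2 fold change of each member, RNAi over CTRL, with its SE (edgeR), against rank by mean level. Values run from -0.51 to 0.77 on both sides of 0 at all ranks, and no member passed the adjusted threshold.

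The largest fitted difference upwards was that of Potri.016G112400 on chromosome 16, the member whose rank moved most. It had 633, 975 and 450 TMM-scaled CPM in RNAi and 654, 312 and 238 in CTRL. The groups overlapped through CTRL 1, and the log2 fold change of 0.77 ± 0.42 (SE) had an adjusted p of 0.80 in edgeR. It was 1.33 without CTRL 1, 0.51 without CTRL 3 and 0.43 without RNAi 2. Potri.015G017500 on chromosome 15 came next, with 1167, 2007 and 1575 TMM-scaled CPM in RNAi and 1083, 890 and 820 in CTRL. All 3 RNAi plants stood above all 3 CTRL plants, RNAi 1 narrowly, and the log2 fold change was 0.77 ± 0.25 (SE, unadjusted p = 0.0145 and adjusted p = 0.80 in edgeR, adjusted p = 0.31 in DESeq2). The other member with an unadjusted p under 0.05 in edgeR, Potri.006G126800, chosen for naming once its values were known, had 1367, 1685 and 1470 TMM-scaled CPM in RNAi and 1031, 1080 and 1155 in CTRL. Its values did not overlap either, and its log2 fold change was 0.47 ± 0.19 (SE, adjusted p = 0.80 in edgeR).

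The largest fitted difference downwards was that of Potri.008G074600 on chromosome 8, the last member by rank. It had 540, 354 and 374 TMM-scaled CPM in RNAi and 769, 561 and 479 in CTRL, with an overlap between RNAi 1 and CTRL 3 and a fitted log2 difference of -0.51 ± 0.25 (SE, edgeR adjusted p = 0.80), which was -0.29 without CTRL 1. Potri.010G209900 on chromosome 10 had 702, 517 and 657 TMM-scaled CPM in RNAi and 967, 866 and 665 in CTRL. It overlapped between the same libraries, with a fitted log2 difference of -0.41 ± 0.21 (SE, edgeR adjusted p = 0.80).

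By the number in their identifiers the members lay on 18 chromosomes, with 18 on chromosome 10 and 17 on chromosome 1. That is 0.860% of the 2092 listed identifiers of chromosome 10 and 0.462% of the 3678 of chromosome 1. Chromosome 14 held 1 member among 1559 listed identifiers, Potri.014G146600, although 9 of the next 150 lie there. The members on chromosome 10 held 2.53% of the sense counts of a library on average, more than those of any other chromosome (chromosome 1 came next with 1.86%). The 3 neighbours at the highest ranks alone held 1.26% of a library, so this order rests on them. Position in the list of identifiers put 17 members (11.3%) within 5 places of another member, in 8 runs, against 10 (6.67%) of the next 150.

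Neighbours in such runs were alike in some cases and unlike in others. Potri.006G166800 had 1999, 1274 and 1393 TMM-scaled CPM in RNAi and 1999, 758 and 1065 in CTRL, and Potri.006G166700 beside it had 1465, 1205 and 945 in RNAi and 1421, 780 and 1049 in CTRL. Both were lowest in CTRL 2. On chromosome 17, Potri.017G012100 had 2121, 1315 and 2062 TMM-scaled CPM in RNAi and 2396, 1885 and 995 in CTRL. Potri.017G011900, within 5 places of it, had 831, 485 and 734 in RNAi and 1036, 863 and 490 TMM-scaled CPM in CTRL. Both were low in RNAi 2 and CTRL 3, as was Potri.017G010900 further along the same chromosome. The neighbours on chromosome 4 went apart instead. Potri.004G168800 had 2979, 2298 and 2641 TMM-scaled CPM in RNAi and 3550, 2441 and 3044 in CTRL, highest in CTRL 1 and lowest in RNAi 2. Potri.004G168600 had 588, 1042 and 967 TMM-scaled CPM in RNAi and 465, 734 and 481 in CTRL, highest in RNAi 2 and lowest in CTRL 1.

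Opposite-strand counts were not used to choose the members, but as a share of stranded counts they fall with the sense level that was. The median member had 0.0928% of its stranded counts on the opposite strand over the 6 libraries, against 0.113% for the next 150 and 0.162% for all tested identifiers. A share above 1% was found in 1 member (0.667%), against 14.0% of all tested, and the choice by sense level favours both differences. In absolute terms the members held 6.52%, 4.36% and 5.97% of all opposite-strand counts in RNAi 1, 2 and 3 and 5.94%, 4.96% and 6.82% in CTRL 1, 2 and 3. Most of these counts lay in 1 member, Potri.005G239200, described below. Summed over the members, the opposite strand had 0.625% of the stranded counts of a library on average, and 0.121% with that member left out. No member passed in edgeR's quasi-likelihood test of opposite-strand counts between RNAi and CTRL. This covered the 92 members with enough such counts among 1725 identifiers, of which 1 (0.058%) passed, and the lowest adjusted p of a member was 0.71. At an unadjusted p under 0.05 there were 5 of these 92 members, against 112 of the 1725 identifiers (6.49%).

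The 1 exception was Potri.005G239200 on chromosome 5, with 49.0% of its stranded counts on the opposite strand. It had 12387, 9024 and 16465 sense counts in RNAi and 9971, 11176 and 14858 in CTRL. Its opposite strand had 12820, 8329 and 14822 counts in RNAi and 9479, 10225 and 15436 in CTRL. Its neighbour Potri.005G239300, also a member, had 15014, 9614 and 17564 sense counts in RNAi and 11312, 11801 and 17609 in CTRL. Counted without regard to strand, this neighbour kept only 2204, 1291 and 2736 counts in RNAi and 1839, 1581 and 2186 in CTRL. The counts it lost, 12810, 8323 and 14828 in RNAi and 9473, 10220 and 15423 in CTRL, matched those on the opposite strand of Potri.005G239200 to within 13 counts in each library. Without strand 14.3% of the counts of Potri.005G239300 remained, whereas Potri.005G239200 kept its own. Among the other members, 3 lost more than 1% of their counts without strand, and were chosen for this after their values were seen. They were Potri.017G108500 (0.973 of its sense counts left), Potri.017G036800 (0.979) and Potri.002G261500 (0.950). With Potri.005G239300 this makes 4 members (2.67%), against 1.33% of the next 150 and 3.26% of all tested, so such a loss was not particular to the members.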

How the data were processed

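Poly(A)-selected, paired-end, strand-specific libraries were made with a TruSeq stranded mRNA kit, per the labels' protocols. Per the file headers, the deposited values are raw counts per gene in 3 columns, unstranded, forward and reverse. The submitters' processing notes name STAR. Its version, the build and the gene models used are not given in the sources used. Reverse-column counts were used as sense counts, since this kit places sense reads there. Summary lines, which name no gene, took 11.7% to 13.1% of each library's reads and were left out. A count of 0 would allow up to 3 counts, and no member had one. No library was a duplicate of another (chi-square over degrees of freedom from 7.96 to 39.1).

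RNAi was compared with CTRL in edgeR 4.0.16 (R 4.3.3) by the quasi-likelihood F test, two-sided, with TMM factors, filterByExpr and Benjamini-Hochberg adjustment over 24991 identifiers at 0.05. The SE is the log2 fold change over the square root of F. The script was tested on simulated data. Alternatives were DESeq2 1.42.0, limma-voom (limma 3.58.1), other scalings, no filter, the unstranded column, the replicate number as a block, each library left out, and other choices of members. The text names the 15 highest members, 3 on either side of the limit, the 5 with the highest and the 5 with the lowest within-group CV, and the 2 with the largest fitted difference in each direction. The members and lists were chosen with earlier results of these data known. Functional classes and tissue markers planned by gene name were not analysed here.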

Additional observations from a re-analysis of the deposited data

How the results depend on the processing

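The count of 0 members called held under all 14 alternatives in each of which the members were tested again, with a lowest adjusted p of 0.31 (DESeq2). The members at an unadjusted p under 0.05, 2 higher and 0 lower, became 16 higher and 0 lower without CTRL 1 (3.76% and 4.09% of all tested there), and 0 higher and 3 lower without CTRL 3 (1.39% and 1.52% of all tested there). The share of members higher was thus above that of all tested without CTRL 1, but below it in the main fit. With the replicate number as a block, 0 members were called, 5 were higher and 2 lower at an unadjusted p under 0.05 (3.68% and 2.39% of all tested), the lowest adjusted p was 0.79 and the median log2 fold change was 0.03. Same-numbered libraries correlated by 0.24, -0.02 and -0.03 in their deviations from the group means over all tested identifiers. Libraries with different numbers ran from -0.40 (RNAi 1 and CTRL 2) to 0.42 (RNAi 3 and CTRL 2). Such correlations cannot settle whether the numbers pair the plants. The median log2 fold change of the members, 0.01, was -0.01 with library size as the only scaling and -0.01 with library size counted over non-members, where the median of all tested identifiers shifted to -0.04 and -0.03. It ran from -0.08 to 0.18 with 1 library left out. Values did not overlap in 8 members (5.33%, against 11.8% of all tested), in 9 with library size only and in 8 with library size over non-members. The share over all tested identifiers was not computed under those other scalings, so the 9 and 8 have no background beside them. The share of the members, 15.8%, was 12.9% for the 100 highest and 22.1% for the 300 highest, by construction, and between 15.7% and 16.5% for 150 chosen by CTRL mean, RNAi mean, lowest value or with chromosome 19 and Potri.T kept in. The median within-group CV of 20.4% was 18.9% without TMM factors and between 18.2% and 21.5% with 1 library left out, and the median correlation between libraries was 0.814 by Pearson's r of log2 CPM in place of 0.727 by Spearman's rho. The cause of these shifts was not tested. The difference in share between RNAi and CTRL ran from -0.61 to 1.33 percentage points with 1 library left out, and that of the 10 highest members from -0.31 to 0.22. The 2 largest fitted differences in each direction kept their sign in all 14 alternatives. Those members were chosen for their size in the same libraries, so a kept sign is no separate support. With 3 plants a group, the median SE of 0.23 on the log2 scale limits what could be called.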
